A study of Mus musculus with 6 samples.

Results

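The genes described here are 10 transcription factors and cofactors known from deep-layer neurons of the cerebral cortex: Fezf2, Fezf1, Bcl11b, Bcl11a, Tbr1, Sox5, Tle4, Foxp2, Zfpm2 and Lmo3. They were chosen by gene symbol in the authors' deposited comparison table, which gave 19 of its 27269 probes and 10 of its 17646 symbols. The column of updated symbols alone named 8 of these probes and 7 of the genes, and the array's own symbols added 11 probes, among them all those of Tbr1, Bcl11a and Tle4. RNA came from the dissected dorsal forebrain of 3 mutant and 3 control mouse embryos at E11.5, with 1 embryo and 1 single-colour array per sample. The labels name the groups mutant and control without the altered gene, the allele or the driver of any recombinase, and the series title places the study in Wnt/b-catenin signaling. Each mutant came from the same litter as the control of the same number.

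Deep layers of the cortex hold the neurons that project to the brainstem and spinal cord and those that project to the thalamus. Fezf2 directs the subcerebral fate, with Bcl11b acting downstream of it in axon growth, while Tbr1 directs the corticothalamic fate and represses Fezf2 and Bcl11b. At E11.5 no cortical layer has formed: dividing progenitors line the ventricle, the first neurons lie above them in the preplate, and Fezf2 is already made in dorsal progenitors.

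Each level is the log2 of the probe signal minus the log2 of the 75th percentile of its array, so that 0 is the brightness of that percentile. Levels of a group are listed in the order of embryos 1, 2 and 3, and a difference is mutant minus control with its standard error (SE). The filter kept probes that the scanner called well above background on 3 or more of the 6 arrays, and all 19 passed it. Levels of different probes are not compared. In limma over all 26864 probes tested, 0 of the 19 passed an adjusted p of 0.05, against 7 probes or 0.0261% of all tested, and 0 of all probes passed with litter as a block. At an unadjusted p under 0.05 the count was 5 of the 19, or 26.3%, against 16.4% of all tested. The mutant and control values did not overlap for 7 of the 19 probes (36.8%), of which 5 were higher and 2 lower in the mutants, against 24.3% of all probes tested. The median difference was 0.19 over the 19 probes and 0.27 over the brightest probe of each gene, beside 0.02 over all probes tested.

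Markers of the dorsal forebrain were present throughout: all 12 pallial radial glia genes, Emx1 and Pax6 among them, were well above background on all 6 arrays. Of those 12, 3 were higher and 2 lower in the mutants at an unadjusted p under 0.05, with 0 past the threshold in limma. Markers of other cells differed between embryos. Linear signals were summed over each list, in units of the 75th percentile of the array. Cortical hem and choroid plexus markers summed to 17.7, 11.7 and 1.67 in mutants 1 to 3 and 7.09 to 9.08 in the controls. Mutants 1 and 2 thus lay above all controls and mutant 3 below them. Meningeal markers summed to 42.7, 19.8 and 14.1 in mutants 1 to 3 and 19.3 to 29.1 in the controls, so that mutant 1 was highest and mutant 3 lowest. Subpallial markers summed to 20.4 to 24.5 in the mutants and 20.6, 18.1 and 12.5 in controls 1, 2 and 3. Pan-neuronal markers summed to 99.5, 135 and 141 in mutants 1 to 3 and 87.0 to 95.4 in the controls. Fewer cells of a type and less RNA per cell cannot be told apart in such tissue.

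Fezf2 and Fezf1, closely related zinc-finger repressors, stood on opposite sides of their controls. Fezf2, the determinant of subcerebral projection neurons, was at 0.51, 0.89 and 0.58 in the mutants, with controls at 1.39, 1.40 and 1.62. Every mutant lay below every control, and the widest gap within the mutants, between mutants 1 and 2, was smaller than the gap between the groups. The group means were 0.66 ± 0.20 in mutants and 1.47 ± 0.13 in controls (SD, n = 3 each), a difference of -0.81 (SE 0.13, 95% interval -1.13 to -0.49), or a 1.75-fold lower signal. This did not pass limma over all probes (adjusted p = 0.108), but it did with normexp background correction (adjusted p = 0.0372), where 0.718% of all probes passed, and with a variance trend and robust moderation (adjusted p = 0.0442), where 0.536% passed. The fdr of this probe in the authors' deposited table, which comes from the same arrays, is 0.0256 with a log2 ratio of -0.81. Of the 19 probes, 1 has an fdr under 0.05 in the authors' deposited table, that of Fezf2, against 1.31% of all its 27269 probes. No fdr is listed there for 6 of the 19 probes and for 15786 of all 27269. Those probes count as not under 0.05, so the 1.31% is lower than the share among probes with an fdr. The difference was -0.89, -0.51 and -1.04 within litters 1, 2 and 3, and -0.77 within slide 2, which held litters 2 and 3. It was -0.77 without mutant 3 and -0.74 without control 3. Of the 12 pallial radial glia genes, 4 had negative differences, as Fezf2 had, and 8 had positive ones (median 0.15). Among the 4, Emx1, a homeobox gene of the pallium, was at 0.32, 0.65 and 0.34 in the mutants, with controls at 0.88, 1.77 and 1.09. Emx2 also had every mutant under every control. The difference of Emx1 was -0.81 (SE 0.25, adjusted p = 0.224). Those with positive differences included Fabp7, a fatty acid binding protein (1.39, SE 0.13, adjusted p = 0.0559), Slc1a3, a glutamate transporter (0.99, SE 0.18), and Pax6 (0.33, SE 0.09). These radial glia genes were named after their values were seen, and the part of the dorsal progenitor share in the Fezf2 values was not tested. The single Fezf2 probe lies on the minus strand at chr14:13175057-13175116 in the mm9 annotation of the array.

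Fezf1, known in the mouse for olfactory development and for acting with Fezf2 in early forebrain patterning, was at -0.09, -0.14 and -0.06 in the mutants, with controls at -0.75, -0.44 and -0.95. The mutants lay close together and all above the controls, which were spread more widely. The means were -0.10 ± 0.04 in mutants and -0.71 ± 0.26 in controls (SD, n = 3 each). The difference of 0.62 (SE 0.14, 95% interval 0.28 to 0.96), a 1.53-fold higher signal, did not pass (adjusted p = 0.166), and its fdr in the authors' deposited table is 0.0512. It was 0.66, 0.30 and 0.89 within litters 1, 2 and 3. The probe lies at chr6:23195360-23195419 in mm9, minus strand. Opposite signs were thus present within each of the 3 litters, while the difference between the responses of the paralogues was not tested.

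**Figure D1:**
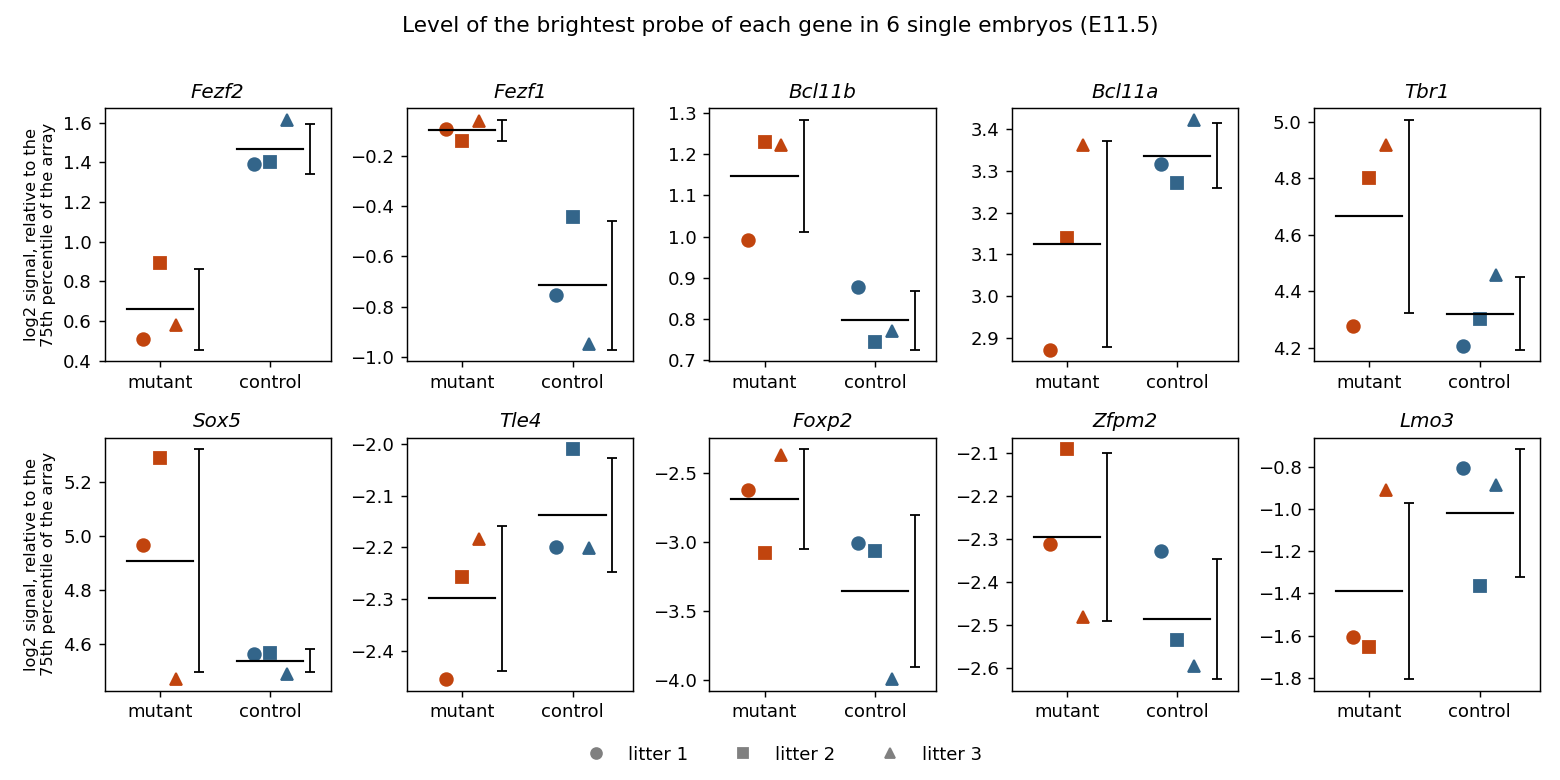
Level of the brightest probe of each of the 10 genes (log2 signal relative to the 75th percentile of the array) in mutants (left of each panel) and controls (right), with 1 point per embryo, shapes for litters, a line at the mean and a bar of 1 SD beside it. The groups do not overlap for Fezf2, Fezf1 and Bcl11b, with Fezf2 lower in the mutants and the other pair higher.

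The genes with a profile most like that of Fezf2 were picked from 17105 other named genes, by the root mean square distance of their 6 log2 values, each centred on its control mean. They were Rnf152, Fzd1, Treml2, LOC100503619 and Gas1, at distances of 0.05, 0.06, 0.08, 0.09 and 0.11 on the log2 scale. The median over all genes compared was 0.63, and genes picked as the nearest lie under it by selection. Treml2 (-6.54 to -5.44) and LOC100503619 (-6.56 to -5.48) were dim. Fzd1, a receptor for Wnt proteins, was at 1.34, 1.65 and 1.46 in the mutants, with controls at 2.17, 2.34 and 2.39. Gas1, a membrane protein that binds hedgehog ligands, was at 2.05, 2.26 and 1.85 in the mutants, with controls at 2.68, 2.73 and 2.87. None of the 5 passed the test over all probes in limma (Fzd1, difference -0.82, SE 0.11, adjusted p = 0.102).

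Since the title concerns beta-catenin, which acts through DNA-bound Tcf/Lef factors, the 250 bases before the RefSeq start of each gene (GRCm38.p6) were searched for CTTTGA, a core of the Tcf/Lef motif, on both strands. Of 8 genes with an entry, 4 held 1 match each, which are shown as 30 bases on the strand of the gene with the motif in capitals, reversed as TCAAAG in Lmo3.
Fezf2: acaccaggggccCTTTGAggtagcgcgtcg
Bcl11b: agaggccaagcaCTTTGAagaagtgtgaga
Tbr1: taaattgcacatCTTTGAatcttcctgaag
Lmo3: ggaagactttaaTCAAAGgaccagaagacg
The stretches lie at chr14:12346039-12346068 (minus strand), chr12:108003486-108003515 (minus), chr2:61804254-61804283 (plus) and chr6:138582019-138582048 (minus), each inside the annotated span of its gene, which includes other transcripts. The first base of the motif was 191, 89, 187 and 68 bases before the start in the order printed. No match was found in the windows of Fezf1, Sox5, Bcl11a and Tle4. The motif was present in 13.8% of all 32851 windows of this length, and the brightest probes of the 4 genes that held it had differences of both signs, none past the threshold: -0.81 for Fezf2, 0.35 for Bcl11b, 0.34 for Tbr1 and -0.37 for Lmo3.

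The zinc-finger factor Bcl11b, also called Ctip2, is needed for corticospinal axons to reach their targets and is also made in striatal neurons. Its brighter probe was at 0.99, 1.23 and 1.22 in the mutants, with controls at 0.88, 0.74 and 0.77. All mutants were above all controls, with mutant 1 nearest to them. The means of 1.15 ± 0.14 in mutants and 0.80 ± 0.07 in controls (SD, n = 3 each) differed by 0.35 (SE 0.09, adjusted p = 0.2), and within litters 1, 2 and 3 the difference was 0.11, 0.48 and 0.45. The other probe, at 0.72, 1.11 and 1.0 in the mutants, with controls at 0.68, 0.68 and 0.64, gave a difference of 0.28 (SE 0.11, adjusted p = 0.304). The probes, at chr12:109153847-109153906 and chr12:109148932-109148991 in mm9, thus gave like values from separate places in the gene.

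Bcl11a, or Ctip1, its paralogue, is known to restrain the subcerebral programme in favour of corticothalamic and callosal neurons. Its bright probe was at 2.87, 3.14 and 3.36 in the mutants, with controls at 3.32, 3.27 and 3.42. Mutants 1 and 2 lay below the controls and mutant 3 among them, and the difference was -0.21 (SE 0.14, 95% interval -0.55 to 0.13, adjusted p = 0.483). A dim probe, well above background in 1 of 3 mutants and in 3 of 3 controls, had a difference of the other sign as reported (0.13, SE 0.23). Its sign was not stable, at -0.08 with quantile scaling and -0.07 with the authors' log2 values.

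Tbr1, the T-box factor that directs corticothalamic identity and marks the first glutamatergic neurons of the preplate, was measured by a bright and a dim probe. The bright probe was at 4.28, 4.80 and 4.92 in the mutants, with controls at 4.21, 4.30 and 4.46. Mutants 2 and 3 were above the controls, and mutant 1 lay within their range. The difference of 0.34 (SE 0.18, adjusted p = 0.408) was 0.54 without mutant 1 and 0.22 without mutant 3. The dim probe was at -2.19, -2.22 and -1.87 in the mutants, with controls at -2.67, -2.69 and -2.47, with no overlap and a difference of 0.51 (SE 0.12, adjusted p = 0.184). They lie at chr2:61652093-61652152 and chr2:61644054-61644113 in mm9.

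Pan-neuronal markers moved in the same embryos as Bcl11b and the bright Tbr1 probe. All 17 of 17 genes on that list had positive differences, 7 of them at an unadjusted p under 0.05 and 0 past the threshold in limma. The list's median deviation from its control level stood at 0.09, 0.44 and 0.61 in the mutants, with controls at 0.12, -0.01 and -0.11. For the brighter Bcl11b probe the deviation was 0.19, 0.43 and 0.43 in the mutants, and for the bright Tbr1 probe -0.04, 0.48 and 0.60. Mutant 1 lay above all controls for Bcl11b, but not for the list or the bright Tbr1 probe. The other Bcl11b probe stood at 0.06, 0.45 and 0.34 in the mutants. Mutant 1 was thus the lowest mutant for the list, for both Bcl11b probes and for the bright Tbr1 probe. The dim Tbr1 probe did not share this order: its deviations were 0.42, 0.38 and 0.73 in the mutants, with mutant 1 above all controls. Among the markers, Ncam1, a cell adhesion molecule, was higher by 0.50 (SE 0.14), Gap43, a growth cone protein, by 0.61 (SE 0.17), and the RNA-binding protein Celf4 by 0.55 (SE 0.20). The part of the neuronal share in these differences was not tested. Basal progenitor markers had 8 of 8 positive differences (median 0.43, with 0 past the threshold in limma and 5 at an unadjusted p under 0.05) and deviations of 0.23, 0.47 and 0.55 in the mutants, with controls at 0.07, -0.08 and 0.01.

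**Figure D2:**
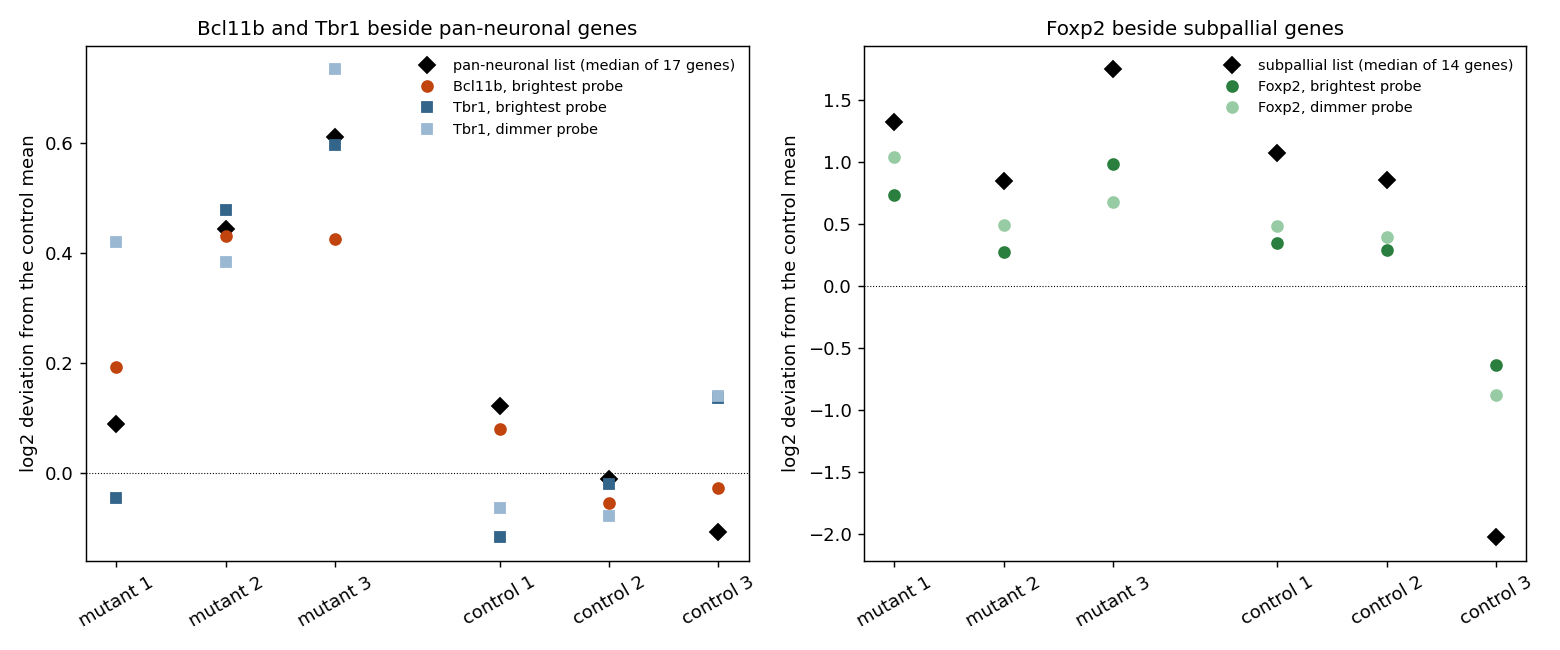
Log2 deviation from the control mean in each embryo. On the left, Bcl11b and Tbr1 beside the median of 17 pan-neuronal genes, where mutant 1 is the lowest mutant for the list, for Bcl11b and for the brightest Tbr1 probe but not for the dimmer one; on the right, Foxp2 beside the median of 14 subpallial genes, where control 3 lies below the other embryos.

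Sox5, a SoxD factor that represses Fezf2 in subplate and corticothalamic neurons and times their emergence, gave probes that disagreed in sign as reported. The brightest, whose annotated position of chr6:143776945-143776971 is shorter than that of the others, was at 4.97, 5.29 and 4.47 in the mutants, with controls at 4.56, 4.57 and 4.49. The controls were nearly equal, mutants 1 and 2 were higher and mutant 3 was just below them. The difference was 0.37 (SE 0.21, adjusted p = 0.425), but 0.59 without mutant 3 and 0.18 without mutant 2. Mutant 3 was also the embryo lowest in hem and choroid plexus markers, whose part in this value was not tested. The other probes, dim at mean levels of -5.81 and -4.76, had differences of 0.14 (SE 0.18) and -0.08 (SE 0.11). No direction was thus shared by the 3 probes as reported. With normexp background correction all 3 were positive, at 0.35, 0.23 and 0.11, so their signs depended on how background was handled.

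Tle4 encodes a Groucho corepressor that marks corticothalamic neurons and binds Fezf2. One of its probes was at -2.46, -2.26 and -2.18 in the mutants, with controls at -2.20, -2.01 and -2.20, with a difference of -0.16 (SE 0.10, adjusted p = 0.483). The other was at -2.46, -2.26 and -2.28 in the mutants, with controls at -2.22, -2.0 and -2.12, with no overlap and a difference of -0.22 (SE 0.10, adjusted p = 0.334). Small negative differences were therefore common to the probes, and neither passed.

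Foxp2, a forkhead factor of layer 6 neurons that is also made in the striatum and thalamus, was at -2.62, -3.08 and -2.37 in the mutants, with controls at -3.01, -3.07 and -3.99. Control 3 stood well below the other embryos, and mutant 2 was level with controls 1 and 2. The difference of 0.66 (SE 0.32, adjusted p = 0.368) was 0.35 without control 3 and 0.19 without litter 3. The dimmer probe ranked the controls alike, at -4.00, -4.55 and -4.36 in the mutants, with controls at -4.55, -4.64 and -5.92, with a difference of 0.74 (SE 0.39). It counts among the probes without overlap by a margin of under 0.01, between mutant 2 and control 1.

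Subpallial markers were lowest in the same embryo. Of 14 genes tested of 15 on that list, 12 had positive differences and 0 passed in limma (1 at an unadjusted p under 0.05), and Nkx2-1 did not pass the filter. Taken as deviations from the mean of the controls, the list's median stood at 1.33, 0.85 and 1.75 in the mutants, with controls at 1.07, 0.86 and -2.02. Named by the smallest p, Lhx6 (difference 1.33, SE 0.46) and Gsx2 (1.25, SE 0.65), homeobox genes of ventral progenitors and interneurons, had positive differences. Among the mutants, mutant 3 was highest and mutant 2 lowest for the list and for the brighter Foxp2 probe, while the dimmer probe was highest in mutant 1. The part of subpallial tissue in the Foxp2 values was not tested.

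Zfpm2, or Fog2, a zinc-finger cofactor of GATA proteins found in corticothalamic neurons, had overlapping groups. Its brighter probe was at -2.31, -2.09 and -2.48 in the mutants, with controls at -2.33, -2.53 and -2.59, a difference of 0.19 (SE 0.13, 95% interval -0.13 to 0.51, adjusted p = 0.502). The second probe overlaps it by a few bases in the genome (chr15:40935062-40935121 and chr15:40935115-40935174, mm9) and gave 0.19 as well (SE 0.18). Without mutant 2, the highest embryo, the difference was 0.09.

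Lmo3, a LIM-only cofactor of transcription factor complexes, varied widely within each group. It was at -1.61, -1.65 and -0.91 in the mutants, with controls at -0.81, -1.37 and -0.89. Mutant 3 lay among the controls and mutants 1 and 2 below them, which gave a difference of -0.37 (SE 0.25, 95% interval -0.99 to 0.25, adjusted p = 0.504). It was -0.61 without mutant 3, and -0.80, -0.29 and -0.02 within litters 1, 2 and 3. The dimmer probe, at a mean level of -5.51, had a difference of -0.20 (SE 0.18), which turned to 0.13 with normexp background correction. In the reported levels of that probe mutant 3 was the lowest embryo. The part of the low hem and choroid plexus signal of mutant 3 in these values was not tested.

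**Figure D3:**
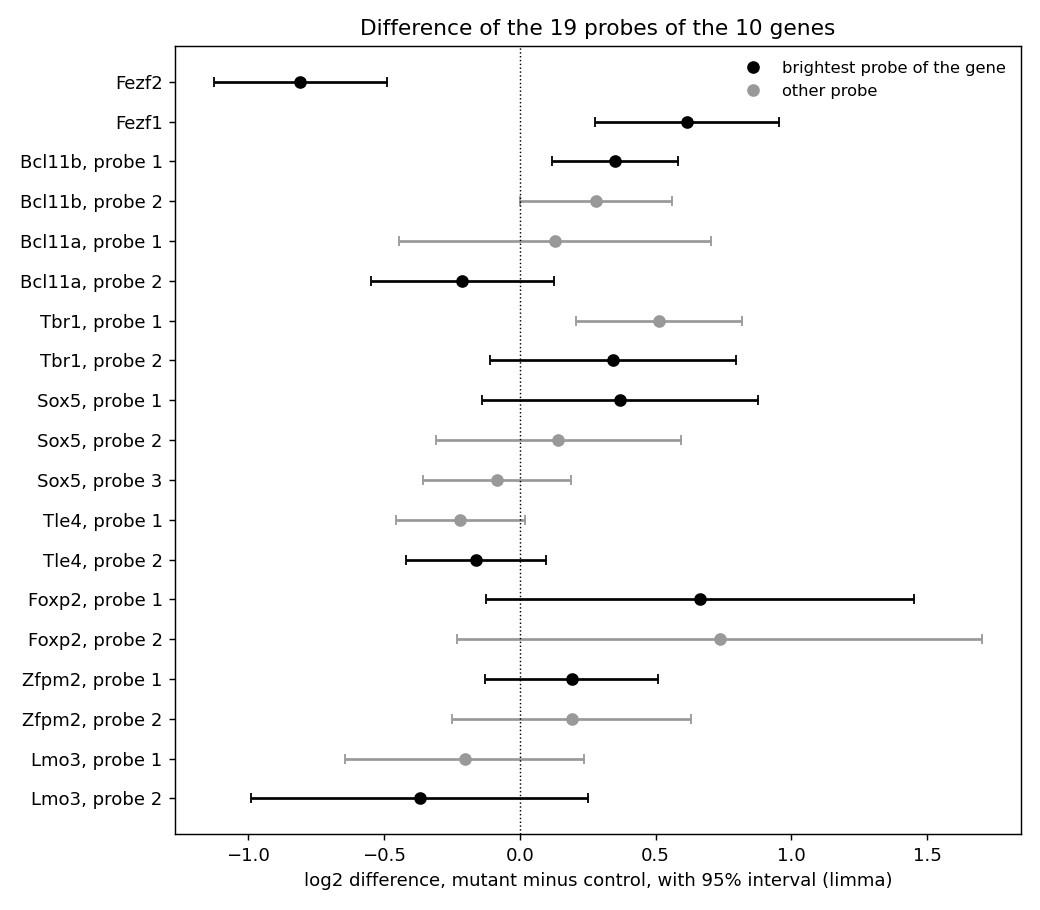
Log2 difference, mutant minus control, of the 19 probes of the 10 genes, with 95% intervals from limma (3 embryos per group). Black points are the brightest probe of each gene and grey points the others; the interval of Fezf2 lies wholly below 0, those of Fezf1, both Bcl11b probes and the dimmer Tbr1 probe lie above it, and the other intervals include 0.

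Other genes of these neurons were counted on lists of the brightest probe per gene. Of 23 further deep-layer and subplate genes tested, 6 were higher and 4 lower at an unadjusted p under 0.05, and 0 passed in limma over all probes (median difference 0.06, beside 0.02 over all probes). Ntng1, a membrane-anchored netrin, averaged -1.98 ± 0.25 in mutants and -3.10 ± 0.19 in controls (SD, n = 3 each, adjusted p = 0.108). The ETS factor Etv1, a marker of layer 5, averaged 2.40 ± 0.11 in mutants and 1.60 ± 0.19 in controls (adjusted p = 0.108). Otx1, a homeobox gene of layer 5 and of progenitors, was lower in each mutant (difference -0.48, SE 0.10), and so was the nuclear factor Nfib (-0.66, SE 0.18). Deep-layer and subplate genes thus lay on either side of the controls.

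Upper-layer and callosal genes, 19 of them tested, had a median difference of 0.42, with 8 higher and 1 lower at an unadjusted p under 0.05 and 0 past the threshold in limma. Nectin3, an adhesion molecule, was higher by 0.52 (SE 0.09), the ephrin receptor Epha3 by 0.76 (SE 0.17) and Lmo4, a LIM-only factor of callosal neurons, by 0.42 (SE 0.10). Lhx2, a LIM homeobox selector of cortical identity, was the lower gene, at 5.43 ± 0.11 in mutants and 6.01 ± 0.06 in controls (SD, n = 3 each, adjusted p = 0.108).

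Known regulators, paralogues and partners of the 10 genes numbered 29 tested, with 8 higher and 4 lower at an unadjusted p under 0.05, 0 past the threshold in limma, and a median difference of 0.11. Emx2, a homeobox gene of the medial pallium, was at 0.62, 0.61 and 0.39 in the mutants, with controls at 1.38, 1.44 and 1.57. Every mutant was below every control (difference -0.92, SE 0.10, adjusted p = 0.0707). Nr2f2, an orphan nuclear receptor, was higher by 0.77 (SE 0.10, adjusted p = 0.102). Lmo1, a paralogue of Lmo3, was higher by 0.98 (SE 0.16, adjusted p = 0.108). Of 14 genes reported downstream of Fezf1 or Fezf2, 3 were higher and 0 lower at an unadjusted p under 0.05, and 0 passed in limma (median 0.29). These were the proneural factor Neurog1 (0.51, SE 0.15), the secreted glycoprotein Olfm1 (0.44, SE 0.14) and Ldb2, a LIM-domain binding factor of corticospinal neurons (0.28, SE 0.10). Hes5, a Notch effector that Fezf1 and Fezf2 repress in the mouse forebrain, was named after its values were seen, and averaged 5.30 ± 0.10 in mutants and 5.40 ± 0.16 in controls (SD, n = 3 each).

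**Figure D4:**
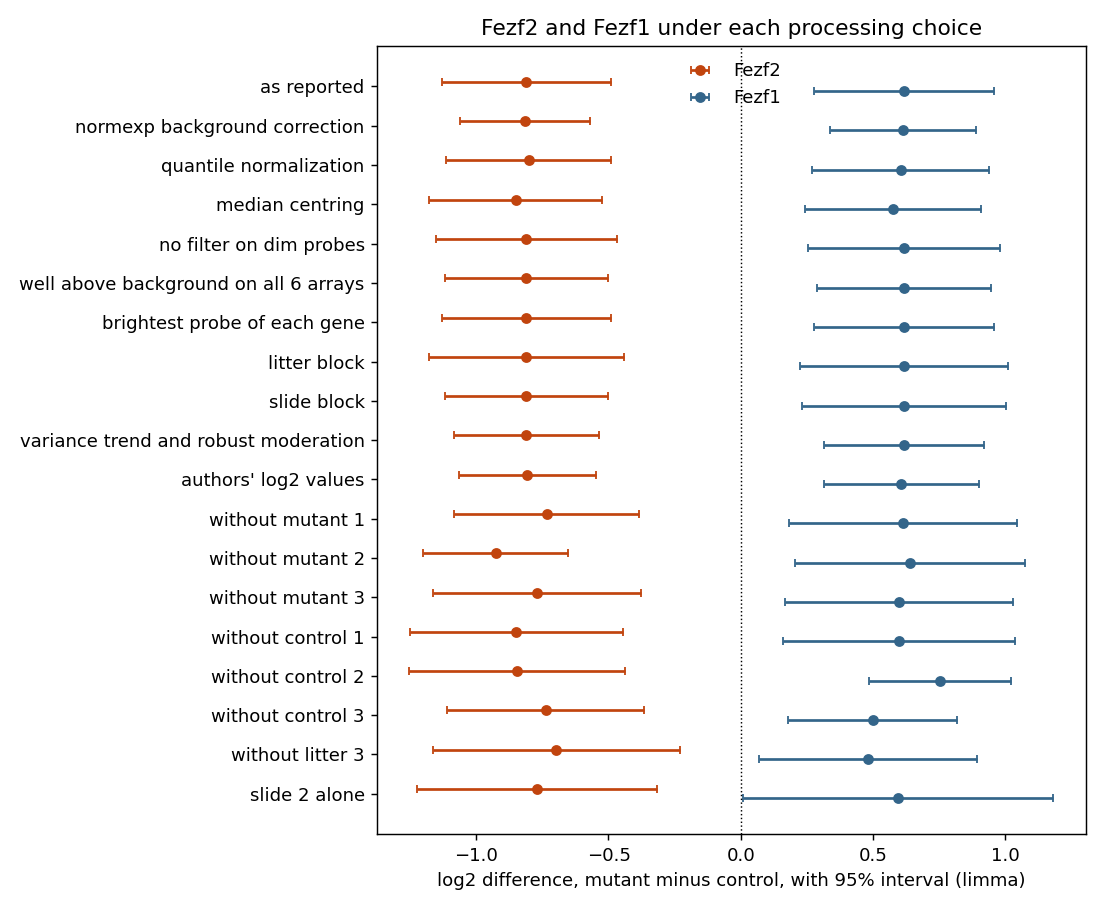
Log2 difference of Fezf2 and Fezf1, mutant minus control, with 95% intervals from limma under each processing choice and with embryos left out. Fezf2 lies between -0.93 and -0.70 and Fezf1 between 0.48 and 0.75 under the alternatives, and all intervals drawn exclude 0.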

How the data were processed

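Total RNA of 6 single embryos was hybridised to Agilent 1-colour arrays (Cy3). Spot intensity on a linear scale was extracted by the authors in Feature Extraction 10.7.3.1, for design 026655 with mm9 positions. Per the file headers, the deposited intensities come with 0 or 1 flags for background, saturation and outliers. The processed intensity is corrected for background within the array only. The authors' deposited table holds log2 signals with equal medians, a log2 ratio, a linear ratio, a p-value and an fdr of mutant against control. The submitters' processing notes name limma, with no version or role, and how these signals were normalized is not stated there. The table's column numbers do not follow the titles, so its columns were used by group.

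Outlier spots were left out, spots of a probe averaged, and log2 intensity scaled by the array's 75th percentile (1207 to 1380 in mutants, 1446 to 1833 in controls). No spot was saturated, and 65.8% to 67.9% of spots in mutants and 68.7% to 70.1% in controls were well above background. Probes well above background on at least 3 arrays were compared with limma 3.58.1 (R 4.3.3), two-sided, with Benjamini-Hochberg adjustment over all 26864. Rows are probes, since the genes were chosen by probe. The number of arrays limits the precision. Python 3.11.15, pandas 2.3.3, numpy 2.4.6 and matplotlib 3.10.9 were used otherwise. The fit was tested on simulated data.

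The titles give the litter that a mutant and a control share, which pairs the samples. Litter mates' deviations from their group mean had correlations of 0.303, 0.340 and 0.108 (litters 1, 2 and 3), against -0.382 to 0.0902 for embryos of different litters. Litter 1 was on slide 1 and litters 2 and 3 on slide 2. Members and lists were chosen with earlier results of these data known. Besides the members, the 4 genes of smallest p on each of 4 lists, 3 on marker lists that moved with a result, and the 5 nearest profiles to Fezf2 were named; names outside this rule are marked, and some results that it covers are not reported here. Probe genes were named by accession through RefSeq (GRCm38.p6; 26529 probes), or else by the authors' symbols (3109). The alternatives were normexp (offset 50, median signal), quantile or median scaling, other filters, 1 probe per gene, a litter block, a slide block, a variance trend with robust moderation, the authors' log2 values and omission of each embryo. Omission of litter 3 and slide 2 alone were added after seeing the data.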

Additional observations from a re-analysis of the deposited data

How the results depend on the processing

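For the brightest probe of each of the 10 genes, the 180 differences (18 alternatives per gene) held 0 changes of sign. Not all of them could change sign. The filters, 1 probe per gene, the litter and slide blocks and the variance trend leave a probe's difference as it is. They alter only its standard error and adjusted p. Of the 180, 2 passed the threshold where the reported value did not, both for Fezf2. The count of the 19 probes past the threshold was 1 with normexp and 1 with a variance trend and robust moderation, against 0 as reported and under the other alternatives. The adjusted p of Fezf2 ranged from 0.0372 to 0.615 over its alternatives, with the highest without litter 3. With litter as the replicate block, 0 of the 19 and 0 of all probes passed (5143 at an unadjusted p under 0.05), and the adjusted p of Fezf2 was 0.163. It changed no call of the 10 genes. Over all probes, the 7 calls became 193 with normexp (56.0% of them higher in the mutants, against 28.6%), 144 with trend and robust variance, 19 with quantile scaling, 25 with the filter on all 6 arrays and 25 with the authors' log2 values. They became 0 without a filter, 0 with slide as a block, 1 without litter 3 and 0 on slide 2 alone, and lay between 0 and 2 when each embryo was left out in turn. The cause of these shifts was not tested. Dim signal limits the second Bcl11a probe, which was near background. Its difference of 0.13 turned to -0.08 with quantile scaling and to -0.07 with the authors' log2 values. Other dim probes changed sign: normexp turned a Sox5 difference of -0.08 to 0.11 and the Lmo3 difference of -0.20 to 0.13. The authors' log2 values turned the Sox5 difference of 0.14 to -0.03.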

Other observations

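Paralogues of the deep-layer genes, chosen here after their values were seen, were measured too. Tle1, a Groucho corepressor like Tle4, was at 4.16, 3.43 and 4.11 in the mutants, with controls at 3.77, 3.11 and 1.82, so that control 3 was again the lowest embryo, as it was for Foxp2 and the subpallial markers. Foxp1, a forkhead relative of Foxp2, was at 2.41, 2.18 and 2.11 in the mutants, with controls at 2.57, 2.56 and 2.59, below all controls in each mutant (difference -0.34, unadjusted p = 0.0138 in limma). Sox11, a SoxC factor that activates Fezf2 transcription in the mouse cortex, was at 4.68, 4.79 and 4.74 in the mutants, with controls at 4.30, 4.42 and 4.37, above all controls in each mutant (difference 0.37, unadjusted p = 0.00229 in limma). Neither Foxp1 nor Sox11 passed the test over all probes.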
